A study of Mus musculus with 2 samples.

Results

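The genes examined were the complement C1q and Fc receptor genes of the mouse macrophage, together with the receptors for the complement fragments C3a and C5a. They numbered 10 of 21887 protein-coding genes, namely C1qa, C1qb, C1qc, Fcgr1, Fcgr2b, Fcgr3, Fcgr4, Fcer1g, C3ar1 and C5ar1. Each gene was taken with its RefSeq body on mm10 and 10 kb on each side, and every listed PHLPP1 region that touched such a window was included. The windows of C1qa, C1qb and C1qc overlap and were treated as 1 locus, which left 8 loci. The windows of Fcgr2b, Fcgr4, Fcgr3 and Fcer1g lie along the same stretch of chromosome 1 and do not overlap. Regions shared by windows were counted once, except in counts by gene. The windows held 29 of 165968 regions in the untreated library and 52 of 226476 in the interleukin-4 (IL-4) library.

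C1q is the recognition molecule of the classical complement pathway and is built from the A, B and C chains that C1qa, C1qb and C1qc encode. It binds antibody that has coated a target, and tissue macrophages are a main source of it. Fc gamma receptors bind the constant part of IgG. Fcgr1, Fcgr3 and Fcgr4 are activating receptors that signal through the gamma chain encoded by Fcer1g, whereas Fcgr2b is the inhibitory receptor of the family. C3ar1 and C5ar1 encode receptors for the anaphylatoxins C3a and C5a, the fragments released as complement is activated.

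PHLPP1 was mapped by CUT&Tag, in which an antibody directs a transposase to the DNA near its target. PHLPP1 is a phosphatase best known for acting on AKT. Wild-type alveolar macrophages from mouse bronchoalveolar lavage fluid were left untreated (UT) or given 20 ng/ml IL-4 for 4 h, with 1 library in each group. Age, sex and number of mice are not in the labels, and a control antibody was not analysed here. With 1 library a group, no difference below was tested.

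Fold and −log10 q are the authors' values for each region, fold being its summit pileup divided by the background recorded at that region in its library. The pileup is the number of fragments stacked at the summit, recovered from the fold and p of each region. It is not scaled for depth. The constant background was 13.9 fragments without IL-4 and 15.9 with it, a ratio of 1.14, and the read depth itself is unknown. A region was called shared when it overlapped a region of the other list by at least 1 bp, and otherwise alone. A place without a region was not at 0, only below what was listed. The lowest listed pileup over the constant background was 23 fragments without IL-4 and 26 with it. As a check of the labelled cell type, 11 of 13 alveolar macrophage marker genes were marked within 1 kb of an end without IL-4 and 12 with it, Chil3 in neither, against 57.5% and 70.4% of all protein-coding genes. Markers of other cells were also marked, with 3 and 5 of 5 for lung epithelium, 1 and 3 of 5 for lymphocytes, 2 and 3 of 5 for granulocytes, and 4 and 4 of 5 for monocytes and interstitial macrophages. These lists are short, and a region at a gene is no measure of its expression.

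Regions over the gene starts separated these genes into those marked in both libraries and those marked with IL-4 alone. RefSeq promoter windows (GRCm38.p6, the assembly behind mm10) run from 250 bases before to 50 bases after a start and were at hand for 9 of the 10 genes, C1qa being the exception. In the IL-4 library all 9 promoter windows were overlapped by a region, against 55.4% of 17492 protein-coding genes with such a window. In the untreated library 6 were overlapped, against 45.5%. The 3 overlapped in the IL-4 library alone were C1qb, Fcgr1 and C3ar1, a state found at 11.6% of all such genes. None was overlapped in the untreated library alone, against 1.71%. Summits lay within 100 bp of the start at 7 of 9 genes in the IL-4 library and at 4 of 6 in the untreated library. The exceptions were Fcgr4, with summits 197 and 195 bp upstream, and C1qc, with summits 165 and 247 bp upstream. The same share over all genes was not computed. Because these regions were taken for overlapping the promoter windows, summits near the start are partly built in.

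The 3 promoters reached in the IL-4 library alone are shown first, 5′ to 3′ on the strand of the gene. They are the promoter windows at which the lists of the libraries differed. Capitals mark the PU.1 core GAGGAA on either strand, PU.1 being a lineage factor of macrophages. The windows are chr4:136886151-136886450 (minus strand) for C1qb, chr3:96293920-96294219 (minus strand) for Fcgr1 and chr6:122856108-122856407 (minus strand) for C3ar1.
C1qb: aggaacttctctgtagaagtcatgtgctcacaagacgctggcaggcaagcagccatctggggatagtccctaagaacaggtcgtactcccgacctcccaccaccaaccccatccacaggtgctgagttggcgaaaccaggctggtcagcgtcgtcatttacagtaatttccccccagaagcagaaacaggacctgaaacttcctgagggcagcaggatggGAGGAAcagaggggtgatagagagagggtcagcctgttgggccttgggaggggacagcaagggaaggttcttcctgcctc
Fcgr1: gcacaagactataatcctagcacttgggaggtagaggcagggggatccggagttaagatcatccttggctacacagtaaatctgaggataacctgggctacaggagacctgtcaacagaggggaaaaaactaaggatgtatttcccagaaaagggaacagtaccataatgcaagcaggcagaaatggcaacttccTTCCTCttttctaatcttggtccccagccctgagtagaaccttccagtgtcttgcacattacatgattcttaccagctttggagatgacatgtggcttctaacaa
C3ar1: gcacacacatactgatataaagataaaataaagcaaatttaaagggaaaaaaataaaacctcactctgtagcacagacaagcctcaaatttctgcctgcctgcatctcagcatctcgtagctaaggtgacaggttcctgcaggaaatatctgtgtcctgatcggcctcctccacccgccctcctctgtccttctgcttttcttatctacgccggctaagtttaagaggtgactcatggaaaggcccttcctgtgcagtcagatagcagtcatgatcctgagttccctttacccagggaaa

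For comparison, 3 promoters reached in both libraries follow, chosen because they also hold the core. They are chr4:136892865-136893164 (minus strand) for C1qc, chr1:171059354-171059653 (minus strand) for Fcgr3 and chr1:171018676-171018975 (plus strand) for Fcgr4.
C1qc: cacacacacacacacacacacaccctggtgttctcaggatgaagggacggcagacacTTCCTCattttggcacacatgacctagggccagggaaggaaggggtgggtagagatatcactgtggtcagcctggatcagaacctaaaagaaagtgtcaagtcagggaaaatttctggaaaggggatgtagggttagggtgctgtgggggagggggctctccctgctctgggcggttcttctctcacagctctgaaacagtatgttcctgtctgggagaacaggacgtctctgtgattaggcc
Fcgr3: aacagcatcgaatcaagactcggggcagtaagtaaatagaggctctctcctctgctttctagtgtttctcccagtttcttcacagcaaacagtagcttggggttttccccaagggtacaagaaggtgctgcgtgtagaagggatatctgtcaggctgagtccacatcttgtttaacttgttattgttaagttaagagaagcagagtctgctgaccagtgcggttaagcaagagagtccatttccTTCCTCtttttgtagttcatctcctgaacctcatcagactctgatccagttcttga
Fcgr4: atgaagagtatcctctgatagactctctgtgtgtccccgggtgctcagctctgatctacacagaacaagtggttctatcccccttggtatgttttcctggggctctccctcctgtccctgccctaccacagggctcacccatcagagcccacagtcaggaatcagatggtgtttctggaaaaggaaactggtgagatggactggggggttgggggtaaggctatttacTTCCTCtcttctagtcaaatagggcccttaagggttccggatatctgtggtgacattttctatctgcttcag

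The PU.1 core GAGGAA was present on either strand at 5 of the 9 genes, namely C1qb, C1qc, Fcgr1, Fcgr3 and Fcgr4. By window this was 6 of 10, Fcgr3 having a pair of listed starts, against 27.4% of 21263 protein-coding promoter windows. For the other patterns below the members are counted by gene and the shares of all by window, so the measures differ. The core lay close to the start at 4 of the 5 genes. Its first base was 55 bases before the start of Fcgr1, 30 before that of C1qb, 22 before that of Fcgr4 and 15 or 6 before the starts listed for Fcgr3, at 171059394 and 171059403. A core between 60 and 6 bases before the start was found in 5.71% of all windows, a range chosen after the positions were seen. Fcgr1 and Fcgr3 shared a run of 14 bases around the core, ttccTTCCTCtttt, the longest run common to any pair of these promoters. The core was found in promoters reached in both libraries and in promoters reached with IL-4 alone, so its presence did not separate them, and the C3ar1 window holds none. A STAT6 pattern, TTC and GAA with 4 bases between, was in none of the 9 windows and in 6.35% of all windows. The AP-1 pattern TGANTCA was in the C3ar1 window alone, 22 bases before the start, and in 6.99% of all windows. The pattern TTNNGNAA, bound by C/EBP factors, was in 4 of the 9 genes and in 37.3% of all windows. The IRF pattern, a pair of GAAA separated by 2 bases, was in the Fcgr4 window alone and in 3.35% of all. The E-box CANGTG was in 4 of the 9 and in 43.2%, the GC box GGGCGG in 2 and in 46.2%, and TATAAA in the C3ar1 window alone and in 12.6%. These are matches of letters on both strands, and whether any factor binds there was not measured.

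Every locus but that of Fcgr4 held more regions in the IL-4 library. The counts were 3 and 10 in the C1q cluster, 2 and 4 at Fcgr1, 3 and 8 at Fcgr2b, 3 and 3 at Fcgr4, 7 and 9 at Fcgr3, 4 and 6 at Fcer1g, 2 and 4 at C3ar1 and 5 and 8 at C5ar1, untreated first. Counted by gene, 9 of the 10 windows held more regions in the IL-4 library, against 68.8% of all protein-coding genes. In these counts and the densities below, C1qa, C1qb and C1qc were separate, so regions in their overlapping windows could enter more than once. All 10 windows held at least 1 region in each library, against 86.9% of genes without IL-4 and 90.0% with it. Per 10 kb of window, the genes had a median of 0.868 regions without IL-4 and 2.28 with it. The medians over all protein-coding genes were 0.662 and 1.19, and their upper quartiles 1.17 and 1.97.

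**Figure D1:**
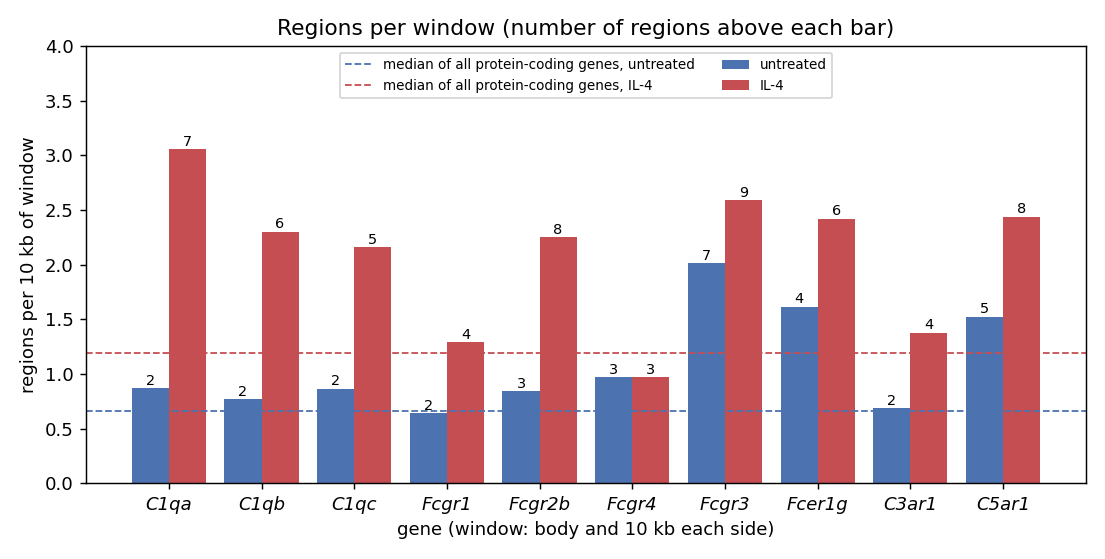
Regions per 10 kb of window (body and 10 kb each side) for each gene, blue for the untreated and red for the IL-4 library, with the number of regions above each bar and dashed lines at the medians of all protein-coding genes (0.662 and 1.19). C1qa reached 3.05 per 10 kb in the IL-4 library, and Fcgr4 had 0.973 in both.

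The untreated regions at these genes were nearly all found again with IL-4. Only 2 of 29 untreated regions were alone (6.90%, 95% interval 0.846 to 22.8), against 37.1% of the whole untreated list and 31.4% of its regions in windows of protein-coding genes. The median untreated fold was 2.41 in these windows and 2.15 over the whole list, and the share alone at like fold was not computed. Of the 52 IL-4 regions, 24 were alone (46.2%, 32.2 to 60.5), against 54.4% of the whole list and 55.0% in gene windows. Of these 24, 6 lay in the C1q cluster and 5 at Fcgr2b, while Fcgr4 had none. The intervals of these shares take the regions as independent, though many are neighbours and each list is 1 library. They are no test against the other shares. The untreated regions alone were at chromosome 1, 171226120 to 171226389, over Apoa2 beside Fcer1g (fold 1.81), and at chromosome 7, 16266717 to 16266916, 7426 bp upstream of C5ar1 (fold 2.35).

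**Figure D2:**
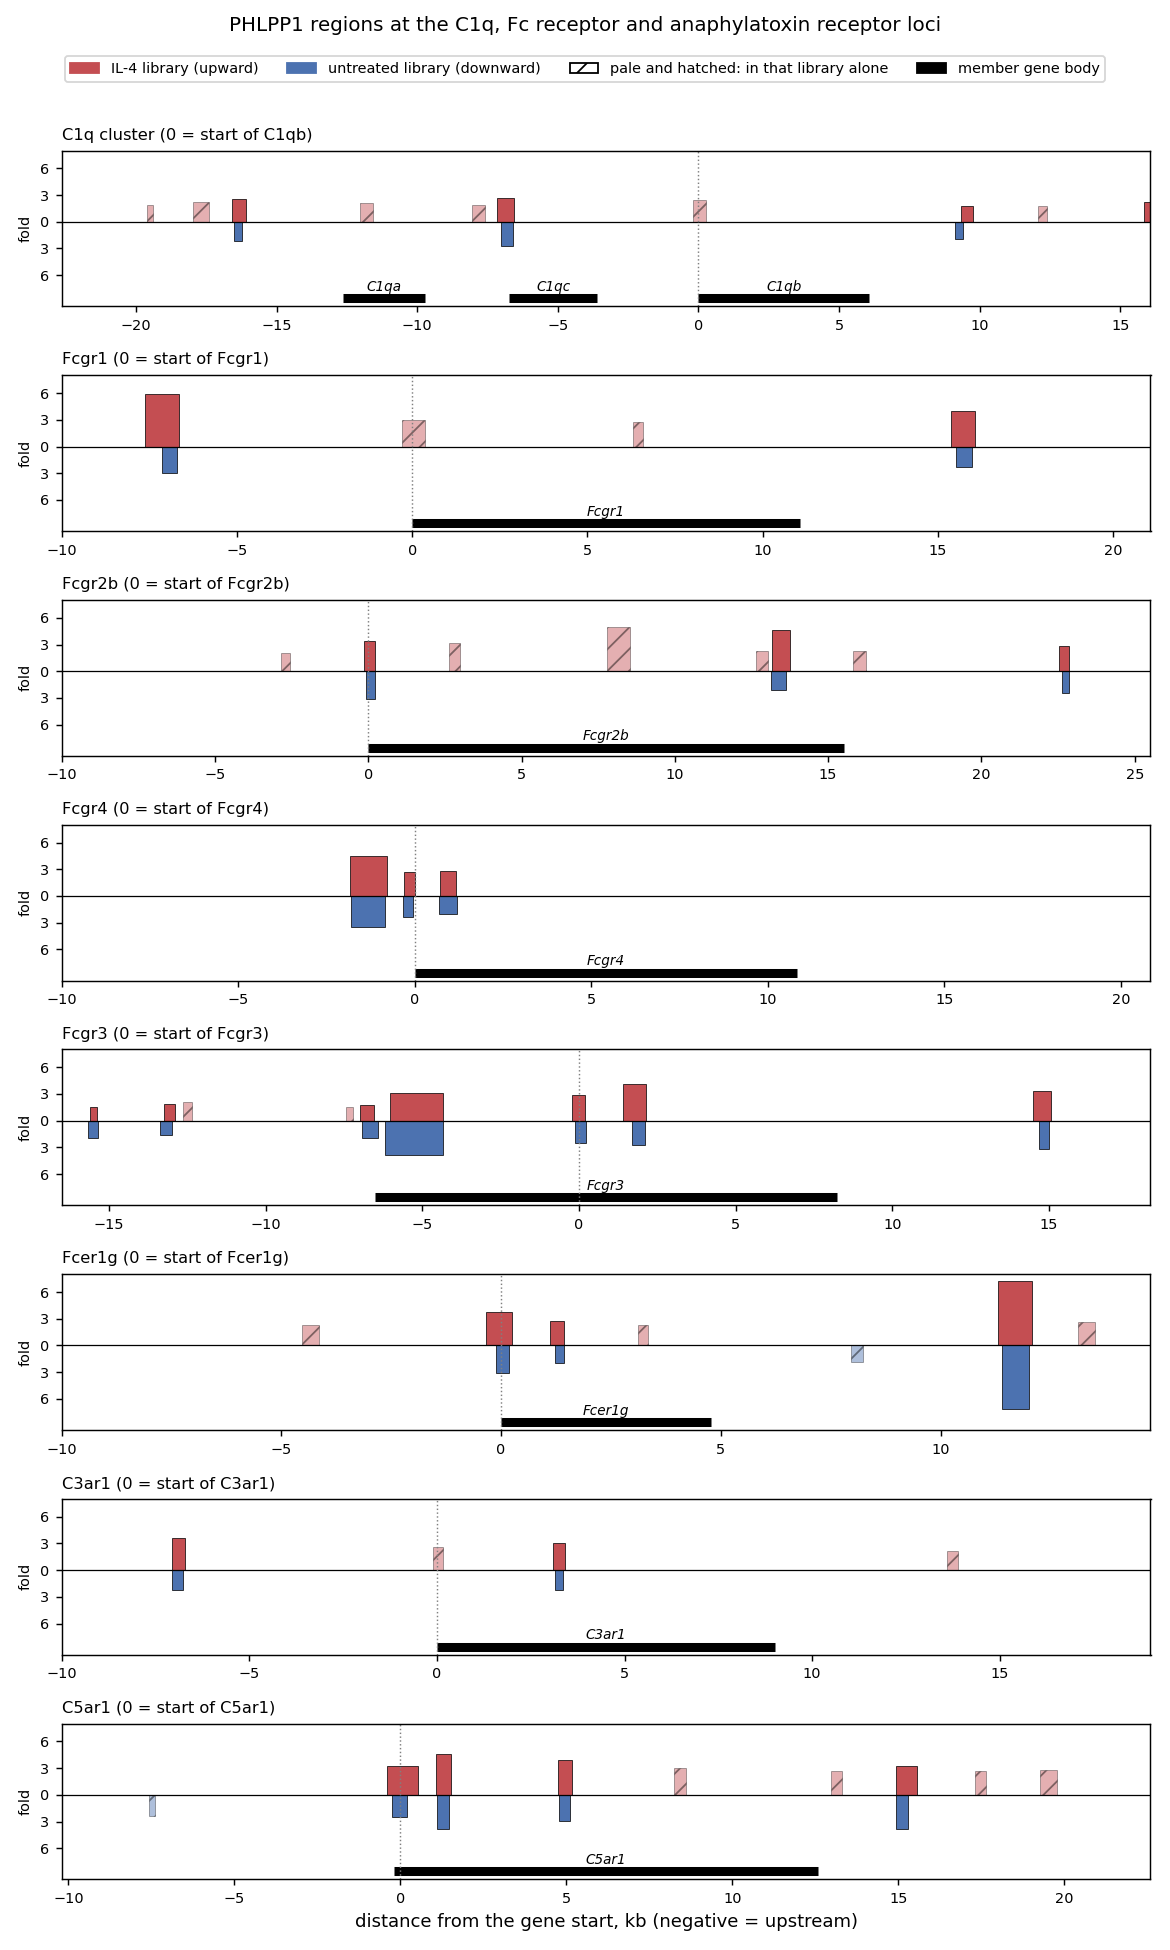
Regions at the 8 loci, placed by distance in kb from the gene start (C1qb for the C1q cluster), with bar height giving the fold, upward for the IL-4 and downward for the untreated library; pale hatched bars were found in that library alone and black bars are gene bodies. The starts of C1qb, Fcgr1 and C3ar1 carry an IL-4 bar alone, and the strongest bar of that kind is inside Fcgr2b, at a fold of 4.92.

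Within 1 kb of either end, a measure that does not depend on gene length, 6 of the 10 genes were marked without IL-4 and all 10 with it. The shares over all protein-coding genes were 57.5% and 70.4%. Marked in both were C1qc, Fcgr2b, Fcgr3, Fcgr4, Fcer1g and C5ar1 (54.5% of all genes). Marked with IL-4 alone were C1qa, C1qb, Fcgr1 and C3ar1 (16.0% of all genes), and no member only without IL-4 (3.06%). With regions of −log10 q of at least 5 the counts were 5 and 9, against 32.9% and 51.7%. At that limit C5ar1 joined C1qb, Fcgr1 and C3ar1 among the genes marked with IL-4 alone (19.5% of all genes), and C1qa was marked in neither. With regions of fold 3 or more the counts were 4 and 6, against 26.2% and 40.1%. The 4 were Fcgr2b, Fcgr3, Fcgr4 and Fcer1g, and Fcgr1 and C5ar1 joined them in the IL-4 library. No C1q gene reached that fold in either library.

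The C1q cluster (C1qb at chromosome 4, 136880126 to 136886200, C1qc at 136889801 to 136892936 and C1qa at 136895916 to 136898844) had the lowest maximum fold of the 8 loci in the IL-4 library, 2.73. Its strongest region lay just upstream of C1qc in both libraries, at 136892778 to 136893230 in the untreated library. There 41 fragments without IL-4 (fold 2.68, −log10 q 5.57) stood against 66 with it (fold 2.73, −log10 q 10.1). The pileup ratio was 1.61 (95% interval 1.07 to 2.44), although the folds were nearly equal. The recorded background was 14.7 fragments there without IL-4 and 23.6 with it.

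The start of C1qb was covered in the IL-4 library alone, by a region at 136885920 to 136886397 with its summit on the start itself. It had 54 fragments, a fold of 2.46 and a −log10 q of 6.58, and the nearest untreated region lay 6381 bp away. At C1qa, a region at 136897758 to 136898247, inside the gene and 597 bp from its upper end, was likewise in the IL-4 library alone, with 51 fragments, a fold of 2.11 and a −log10 q of 4.28. The nearest untreated region was 4195 bp away. The 4 other IL-4 regions alone had −log10 q of 1.87 to 3.60. The remaining shared regions lay outside the genes. One was 9676 bp upstream of C1qc, with 32 and 53 fragments (folds 2.21 and 2.60). Another lay 9282 bp past the start of C1qb, beyond the gene, with 28 and 36 fragments. At the window's edge an IL-4 region of 48 fragments overlapped an untreated region of 27 fragments that itself lay just outside the window.

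Fcgr1, the high-affinity IgG receptor CD64 (chromosome 3, 96282909 to 96293969), was flanked by shared regions, and regions inside the gene were in the IL-4 list alone. No other annotated gene lies in its window. Upstream, at 96300664 to 96301098 in the untreated list, the pileups were 43 and 98, with folds of 2.95 and 5.87. This ratio of 2.28 (1.58 to 3.34) was above that of 97.8% of the 13944 shared regions whose untreated fold was within 10%. The IL-4 region was also the wider, at 960 bp against 435 bp. Beyond the far end, 15852 bp past the start, the pileups were 34 and 66 and the folds 2.35 and 3.97, a ratio of 1.94 (1.26 to 3.03). The start itself had a region at 96293616 to 96294255 in the IL-4 library alone, with 50 fragments, a fold of 3.02 and a −log10 q of 9.11. The nearest untreated region lay 6409 bp from it. A further IL-4 region alone lay 6467 bp into the gene (46 fragments, fold 2.79).

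Fcgr2b, the inhibitory receptor CD32 (chromosome 1, 170960558 to 170976071), showed the largest pileup ratio of all shared regions in these windows, and not at its start. The start region, at 170975836 to 170976139 in the untreated library, had 45 and 57 fragments and folds of 3.08 and 3.44. Its ratio of 1.27 (0.842 to 1.92) was close to the 1.25 that was the median of all shared regions of like untreated fold. Inside the gene, 13429 bp past the start, the pileups were 31 and 77, with folds of 2.15 and 4.62. That ratio of 2.48 (1.62 to 3.90) was above 99.3% of the 48790 shared regions of like untreated fold, whose median was 1.24. The summits of the libraries lay 7 bp apart.

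Between these places the IL-4 library had a region of 750 bp that the untreated library lacked, at 170967521 to 170968270, 8282 bp past the start. It held 82 fragments, with a fold of 4.92 and a −log10 q of 28.5. By fold it ranked 18 of the 123206 IL-4 regions alone across the genome, and the nearest untreated region lay 4589 bp away. A further region alone, 2823 bp past the start, had 52 fragments and a fold of 3.14. The other 3 IL-4 regions alone had folds of 2.08 to 2.31, and 1 of them lay 89 bp from an untreated region. The last shared region, beyond the far end, had 35 and 47 fragments. The recorded background was constant at every region of this window in both libraries, so here fold and pileup give the same order.

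Fcgr4, an activating receptor for IgG2 antibodies (chromosome 1, 171018926 to 171029761), had the same 3 regions in both libraries and no others. They lay 1137 and 197 bp upstream of the start and 746 bp downstream of it, and the rest of the gene held none. The pileups were 51 and 78 at the first (folds 3.49 and 4.52), 34 and 46 at the second (2.35 and 2.71), and 30 and 48 at the third (2.08 and 2.82). The ratios were 1.53 (1.06 to 2.22), 1.35 (0.850 to 2.17) and 1.60 (0.993 to 2.62), so only the first interval lay above 1. The widest region was the one farthest upstream, at 984 bp without IL-4 and 1043 bp with it.

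Fcgr3, the activating receptor CD16 (chromosome 1, 171051169 to 171065915), has its listed RefSeq starts, at 171059394 and 171059403, inside the annotated gene. At the start the pileups were 40 and 72, with folds of 2.49 and 2.94 and a ratio of 1.80 (1.21 to 2.72). Further in, 1953 bp past the start, the pileups were 40 and 69 and the folds 2.75 and 4.15, a ratio of 1.73 (1.15 to 2.61). Both untreated regions were narrower, at 348 and 406 bp against 438 and 726 bp.

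Upstream of that start the pileups were higher, and the window holds 11 tRNA genes. The widest region, at 171063758 to 171065601 in the untreated library, still lay inside the annotated gene. It spanned 1844 bp without IL-4 and 1715 bp with it, and held 138 and 152 fragments. Its fold was higher in the untreated library, at 3.80 against 3.08, and the recorded background was 35.6 fragments there and 48.7 with IL-4. This region and its neighbours, not the region at the start, mark Fcgr3 within 1 kb of an end. The ratio of the pileups was 1.10 (0.869 to 1.40), below the median of 1.48 for regions of like untreated fold. The other 3 shared regions upstream of it had ratios of 1.08 to 1.60 and backgrounds of 41.8 to 70.8 fragments. A pair of IL-4 regions alone lay among them, with 97 and 132 fragments and low folds of 1.59 and 2.12, 286 and 339 bp from untreated regions. Beyond the far end of the gene, also near a tRNA gene, a shared region had 46 and 56 fragments at the constant background. These tRNA genes come in repeated sets, the handling of reads with several matching places is not given in the sources used here, and its part in these values was not tested.

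Fcer1g, the gamma chain shared by the activating receptors (chromosome 1, 171229572 to 171234349), carried a region over its start in both libraries. At 171234177 to 171234459 the untreated library had 46 fragments with the summit 7 bp past the start, and the IL-4 library had 64. The folds were 3.15 and 3.76 and the ratio 1.39 (0.938 to 2.08). Genes lie close together here, so the region cannot be given to Fcer1g alone. A second shared region 1299 bp past the start had 29 and 46 fragments and folds of 2.01 and 2.79. An IL-4 region alone inside Fcer1g had 37 fragments and a fold of 2.25, and one inside Tomm40l had 58 fragments and a fold of 2.59. The region of highest fold in any of the windows, 7.17 and 7.21, lay 11751 bp from the Fcer1g start, at the ends of Tomm40l and Apoa2, and belongs to the window by distance only. Its pileups were 108 and 159, the latter the highest IL-4 pileup in these windows.

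C3ar1, the C3a receptor (chromosome 6, 122847140 to 122856157), had its start covered in the IL-4 library alone, like Fcgr1. Shared regions stood 6945 bp upstream and, inside the gene, 3286 bp past the start. The upstream pileups were 32 and 60 (folds 2.21 and 3.62), a ratio of 1.88 (1.20 to 2.98), and the inner ones 33 and 50 (folds 2.28 and 3.02), a ratio of 1.52 (0.957 to 2.43). The start region, at 122855996 to 122856266, had 42 fragments, a fold of 2.55, a −log10 q of 5.50 and its summit 11 bp past the start. The nearest untreated region lay 2998 bp from it. A weak IL-4 region alone (fold 2.13) lay inside the neighbour Foxj2.

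C5ar1, the C5a receptor CD88 (chromosome 7, 16246743 to 16259540), was marked at its start and inside the gene without IL-4. At the start the pileups were 36 and 61 and the folds 2.48 and 3.27, a ratio of 1.69 (1.10 to 2.63). Its strongest region lay 1265 bp past the start, with 57 and 86 fragments and folds of 3.89 and 4.57, a ratio of 1.51 (1.07 to 2.15). Another shared region, 4913 bp past the start, had 43 and 75 fragments and a ratio of 1.74 (1.18 to 2.60). In the middle of the gene and just beyond its far end the IL-4 library alone had regions of 53 and 52 fragments (folds 3.03 and 2.67). At the end of the neighbour C5ar2, a second C5a receptor, the untreated fold was the higher, 3.89 against 3.28, while the pileups were 57 and 65. That ratio was 1.14 (0.787 to 1.66), and the recorded background was 13.9 fragments in the untreated library and 19.1 with IL-4. Inside C5ar2 the IL-4 library alone had 2 regions, with folds of 2.80 and 2.63.

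Set side by side, all 28 shared regions had a higher pileup in the IL-4 library, with ratios of 1.08 to 2.48 and a median of 1.56. Over all 101742 shared regions of the genome the median was 1.26, and 11972 of them had a ratio below 1. The summed pileups were 1387 and 2056 fragments, a ratio of 1.48 (1.38 to 1.59, counting error only), against 1.33 for the sums over all shared regions. The 95% interval of the single ratio lay above 1 at 15 of the 28 regions and above the 1.14 of the constant backgrounds at 9. The same shares over all shared regions were not computed, so these counts cannot be read as particular to these loci. The ratio was above the median of regions of like untreated fold at 21 of the 28. By fold, 23 of the 28 (82.1%) were higher in the IL-4 library, against 62.6% of all shared regions. The 5 exceptions were 3 of the regions upstream of the listed Fcgr3 starts, the region at the end of C5ar2 and a weak region beyond C1qb. The IL-4 region was the wider at 23 of the 28 (82.1%), against 64.7% overall. Summits kept their place, within 50 bp at 18 of the 28 (64.3%) against 41.9% overall. Whether any of these shares differs from that of other genes was not tested.

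**Figure D3:**
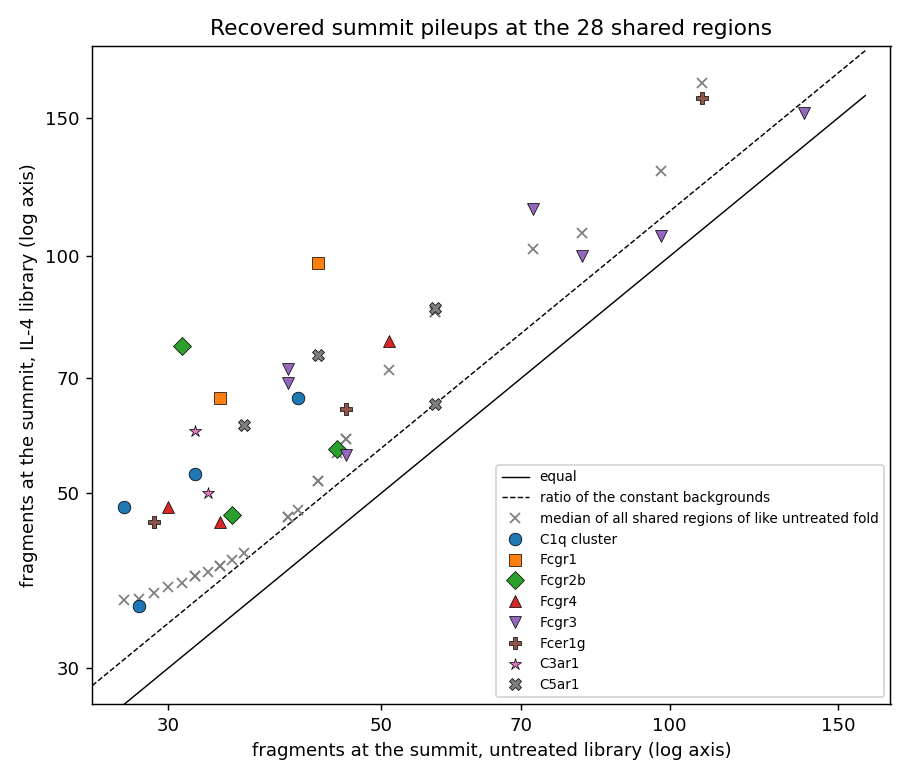
Fragments at the summit in the untreated (x) and IL-4 (y) libraries at the 28 shared regions, on log axes, with symbols by locus, a solid line at equality, a dashed line at the ratio of the constant backgrounds (1.14) and grey crosses at the median of all shared regions of like untreated fold. All 28 points lie above the solid line, farthest at Fcgr2b (31 and 77) and Fcgr1 (43 and 98), while 2 Fcgr3 points near tRNA genes lie between the lines.

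The background that the authors' caller recorded beside the regions differed between the loci. In the C1q cluster all 10 IL-4 regions had a background above the constant one, by factors of 1.08 to 1.53 with a median of 1.32. In the untreated library 1 of 3 regions did, by 1.06. At C5ar1 all 8 IL-4 regions had factors of 1.04 to 1.21 and none of the 5 untreated regions was raised. At Fcgr4 all 3 IL-4 regions had factors of 1.03 to 1.04 and no untreated region was raised. At Fcer1g 3 of 6 IL-4 regions were raised, by up to 1.38, and 1 of 4 untreated regions, by 1.02. At Fcgr3 the factors reached 3.60 without IL-4 and 4.46 with it. At Fcgr1, Fcgr2b and C3ar1 no region of either library was raised. Over all 8 loci, 31 of 52 IL-4 regions (59.6%) and 7 of 29 untreated regions (24.1%) had a raised background. The whole lists had 45.8% and 31.3%. Leaving out Fcgr3, whose window holds 11 tRNA genes, the counts were 24 of 43 (55.8%) and 2 of 22 (9.09%). The Fcgr4 window, which holds 4 tRNA genes, was kept in these counts. Regions near tRNA genes were not left out of the whole lists, so those shares are not like for like. A raised background lowers the fold for the same pileup. At C1qb, C1qc and C1qa the IL-4 folds stood lower than those of Fcgr1 for pileups as high or higher, 54 against 50 fragments at the starts of C1qb and Fcgr1 for folds of 2.46 and 3.02.

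**Figure D4:**
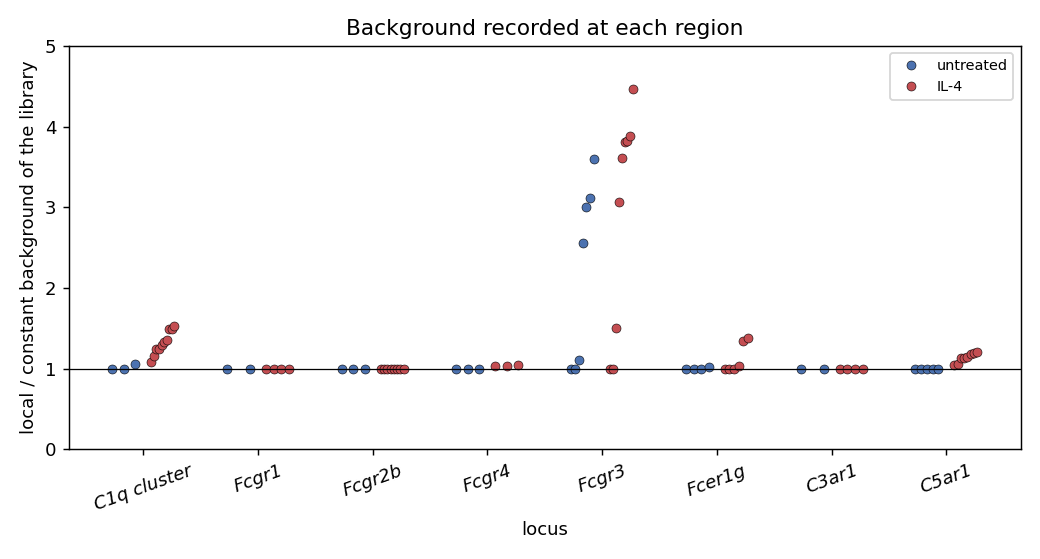
Background recorded at each region, divided by the constant background of its library, for the 8 loci; each point is 1 region, blue for the untreated and red for the IL-4 library, and the line is at 1. The C1q cluster is raised in the IL-4 library (1.08 to 1.53), C5ar1 (1.04 to 1.21) and Fcgr4 (1.03 to 1.04) less so, Fcer1g at 3 of 6 regions, and Fcgr3 in both libraries.

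Other genes of the complement system were marked within 1 kb of an end at 23 of 38 without IL-4 and at 30 with it, against the 57.5% and 70.4% of all genes. Of these, 22 were marked in both libraries (54.5% of all genes), 8 with IL-4 only (16.0%), 1 without it only (3.06%) and 7 in neither. By the lower of their folds, the strongest marked in both were Calr, which encodes calreticulin, a partner of C1q in the uptake of dying cells (folds 5.90 and 8.83), and Cd81, part of the complement coreceptor of B cells (5.11 and 6.02). Among those marked with IL-4 alone were Itgam, a chain of complement receptor 3 (fold 2.43), Cr2, the C3d receptor of B cells (2.37), Cfd, the protease factor D (2.21), Hc, which encodes C5 (2.19), and Masp2, a protease of the lectin pathway (2.10). The last pair tied in −log10 q. C8a, a subunit of the membrane attack complex, was marked in the untreated library alone (2.27). With −log10 q of at least 5, 13 and 18 genes were marked, against 32.9% and 51.7% of all genes.

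Other Fc receptors and the proteins that carry their signal were marked at 30 of 40 genes without IL-4 and at 35 with it, against the 57.5% and 70.4% of all genes. All 30 were among the 35, so 5 were marked with IL-4 alone (16.0% of all genes), and 5 were marked in neither. By the lower of their folds, the strongest in both were the PI3K subunit genes Pik3r1 (folds 6.22 and 7.80) and Pik3cd (5.30 and 5.70). Marked with IL-4 alone were Lcp2, the adaptor SLP-76 (fold 3.20), the kinase gene Btk (2.55), the IgA and IgM receptor gene Fcamr (2.24), the receptor-like gene Fcrl1 (2.13) and the IgM receptor gene Fcmr (1.95). With −log10 q of at least 5, 21 and 29 genes were marked, against 32.9% and 51.7% of all genes. Syk, the kinase recruited by the gamma chain, was marked in both, with 45 and 82 fragments (folds 3.08 and 4.56). Inpp5d, the phosphatase SHIP1 recruited by Fcgr2b, was also marked in both, with 34 and 84 (folds 2.35 and 3.52). Whether the libraries shared these regions was not checked, and the pileups are not scaled for depth.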

How the data were processed

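CUT&Tag for PHLPP1 was measured in 1 untreated and 1 IL-4 library. The tools named are MACS2 2.2.7.1, Bowtie 0.12.8 and DiffBind, with build mm10, per the submitters' processing notes, without roles; settings, filters and any control library are not given in the sources used here. Lists were deposited per library. The deposited fold is the authors' ratio of summit pileup to background, with −log10 p and −log10 q from the authors' caller and a deposited integer score. The deposited summit offset is in bp from a region's start. Because the caller adds 1 to pileup and background before dividing, fold and p gave back both. Pileups were whole within 0.05 for 100% of recovered regions, leaving out 112 untreated and 121 IL-4 regions too strong to recover. The recovery was tested on simulated data. Where several regions overlapped, the one of highest fold per library was used.

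Shares and pileup ratios carry 95% intervals by the exact Clopper-Pearson method. Those of the pileup ratios cover counting error only. Those of the shares take regions as independent and do not cover the spread between libraries. Gene bodies came from the RefSeq table on GRCm38.p6, and promoter sequences from RefSeq on the same assembly. The members, lists, motifs and limits were chosen with earlier results of these data known. All 10 genes were named. From each list came at most 4 genes of highest −log10 q seen in only 1 library, and 2 of highest fold in both; Fcrl1, Fcmr, Masp2, C8a, Syk and Inpp5d include names added after their values were seen. One neighbouring result is not reported here. Exons, introns and sequences of regions away from promoters were not analysed here. Python 3.11.15, numpy 2.4.6, pandas 2.3.3, scipy 1.17.1 and matplotlib 3.10.9 were used. Alternatives covered limits on −log10 q and fold, list length, window size, overlap rule and scaling.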

Additional observations from a re-analysis of the deposited data

How the results depend on the processing

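There was 1 library per group, so no replicate could be left out and no p-value exists. No paired analysis was possible because each group held 1 library. The number of regions in the windows, 29 untreated and 52 IL-4, became 13 and 36 at −log10 q of at least 5, 8 and 20 at fold 3 or more, and 14 and 23 in gene bodies alone; it was higher in the IL-4 library under each alternative run. The 24 IL-4 regions alone became 12 at fold 3 or more and 10 in gene bodies alone, and stayed at 19 to 25 under the other alternatives. The 2 untreated regions alone became 1 at −log10 q of at least 5 and with 5 kb windows, 0 at fold 3 or more and 0 in gene bodies alone. They became 3 with equal list lengths and 3 with an overlap of at least 50% of the shorter region. The 6 genes marked at an end in the untreated library became 10 with a 5 kb distance, as many as in the IL-4 library, so the difference between C1qa, C1qb, Fcgr1 and C3ar1 and the others holds for regions close to the ends. The 10 marked in the IL-4 library became 6 at fold 3 or more. The ratio of summed pileups, 1.48, was 1.30 after division by the ratio of the constant backgrounds and 1.12 after division by the median ratio at like untreated fold. It was 1.60 without the 5 shared regions within 500 bp of a tRNA gene, an alternative chosen after seeing the data.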
